A study of Hordeum vulgare with 6 samples.

Results

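Abscisic acid (ABA) and late embryogenesis abundant (LEA) genes were examined in young barley panicles. The group holds the 83 of the 40411 genes in the deposited table whose description names abscisic acid, an ABA 8'-hydroxylase, a 9-cis-epoxycarotenoid dioxygenase, an LEA protein or a dehydrin, with the hydroxyproline-rich LEA glycoproteins left out. Of these, 5 act in ABA synthesis or breakdown, 22 in ABA signalling and response, and 56 are LEA and dehydrin genes. The compared samples were 3 *msnsd* mutant libraries and 3 E934 libraries, E934 being the variety from which *msnsd* was obtained by treatment with EMS and cobalt radiation, each from a biological replicate of panicles of 0.5 to 1 cm. The mutant is a single line named for its multiple stem nodes and spikes and its dwarf stature, so its panicle samples can include extra spikes, and mutagenised plants can carry changes besides the causal one. Expression was deposited as TPM, a share of all transcripts in a library that corrects for transcript length, so levels can be compared between genes.

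ABA is the plant hormone of seed maturation, dormancy and water deficit. It is made from carotenoids, where 9-cis-epoxycarotenoid dioxygenase (NCED) carries out the committed cleavage, and it is broken down mainly by cytochrome P450 enzymes with 8'-hydroxylase activity. Soluble receptors that bind ABA inhibit protein phosphatases of type 2C, which frees kinases to activate bZIP factors at ABA responsive elements. LEA proteins and their dehydrin class are hydrophilic, mostly unstructured proteins that accumulate in drying seeds and in tissue under cold or drought, and many of their genes respond to ABA.

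None of these genes was past the thresholds that the study used, a log2 difference of 1.5 or more in either direction with an adjusted p no higher than 0.05 (0 of 63 tested, against 0.0485% of all genes tested). The test here was limma on log2(TPM + 0.1) for genes averaging 0.1 TPM or more, with Benjamini-Hochberg adjustment over all 32968 such genes. It placed 16 of them past the thresholds. The study applied the thresholds in DESeq2, a different test, and of the 83 genes it listed HORVU.MOREX.r3.6HG0607330 and HORVU.MOREX.r3.6HG0622710. At an unadjusted p under 0.05, 6 of the 63 were higher in *msnsd* (9.52%, against 5.58% of all genes tested) and 3 were lower (4.76%, against 5.09%). Every *msnsd* library lay above every E934 library in 9 of the 63 genes, against 8.73% of all genes tested, and below every E934 library in 4, against 7.86%. The other 20 genes were too low to test, with no library above 0.33 TPM, and no gene of the 83 was listed at 0 in all 6 libraries. Of the 63, 3 reached the filter through E934 alone and 5 through *msnsd* alone, which sets their direction, and 0 of these 8 had an unadjusted p under 0.05. Fold changes are *msnsd* over E934 throughout, on the log2(TPM + 0.1) scale, and that scale understates the change of low genes.

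**Figure D1:**
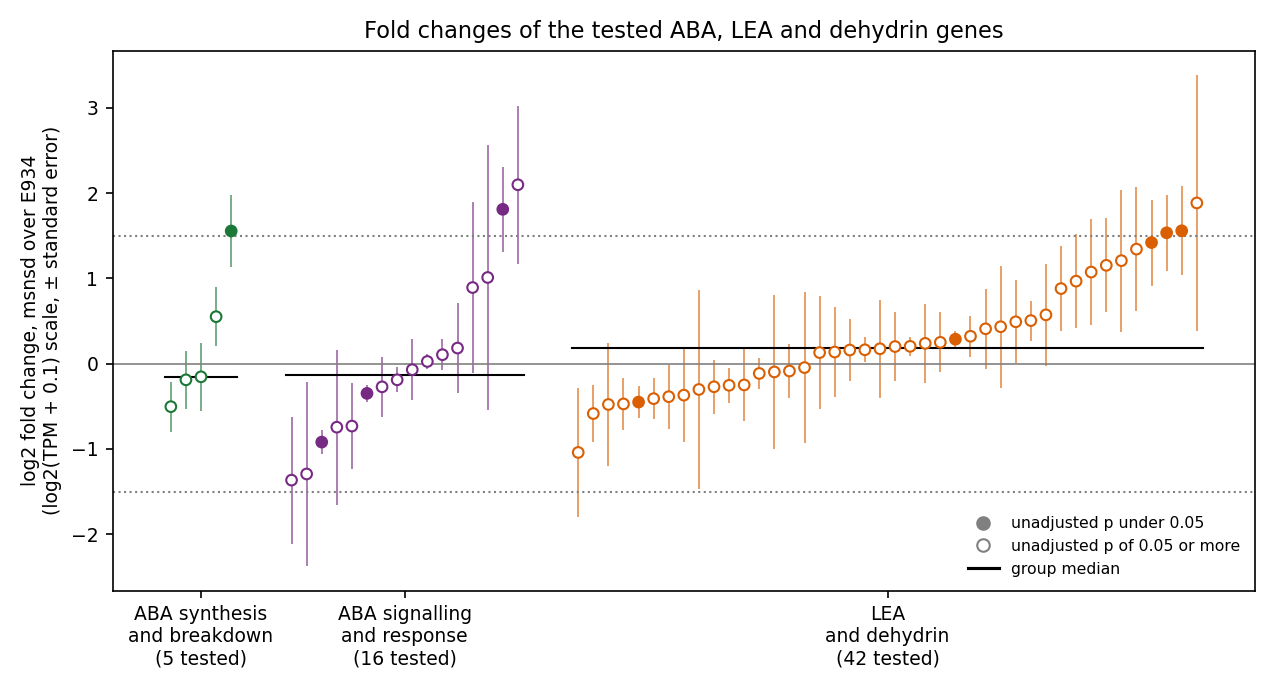
Log2 fold change, *msnsd* over E934, with its standard error for each of the 63 tested genes, ordered by size within the 5 genes of ABA synthesis and breakdown, the 16 of ABA signalling and response and the 42 LEA and dehydrin genes. Filled points have an unadjusted p under 0.05, black lines mark the group medians of -0.15, -0.13 and 0.19, and dotted lines mark 1.5 in either direction.

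The libraries differed within a genotype as well. Pearson correlations of log2 values across 23079 genes ranged from 0.951 to 0.968 within genotypes and from 0.947 to 0.958 between them, and the second principal component (23.6% of the variance) ran from -11.8 to 16.0 in *msnsd* and from -41.3 to 53.1 in E934, with replicates 1 and 3 of E934 at its opposite ends. TPM keeps no sequencing depth, so no counting error can be given, and the spread over 3 libraries is the measure of error. MADS-box genes, which direct floral organ formation, were well represented, with 39 of 52 above 0 in every library. Their summed level was between 1146 and 1167 TPM in *msnsd* and between 1236 and 1389 TPM in E934. In whole panicles, fewer cells of a type and less RNA per cell cannot be told apart.

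Among the genes of ABA synthesis and breakdown, the highest difference was in a breakdown gene. The ABA 8'-hydroxylase gene HORVU.MOREX.r3.6HG0607330 (Morex V3 assembly, chromosome 6H, 462476553 to 462479234, a low-confidence model) had 5.52, 2.43 and 4.88 TPM in the *msnsd* libraries, against 0.79, 1.91 and 1.46 TPM in the E934 libraries. All *msnsd* values exceeded all E934 values, with *msnsd* replicate 2 the nearest to E934. The difference was 1.56 ± 0.42 on the log2 scale (± standard error, n = 3 libraries each), and its adjusted p from limma was 0.2715. The study had listed this gene as differentially expressed from the same libraries, so the difference is no independent evidence. The other ABA 8'-hydroxylase gene, HORVU.MOREX.r3.5HG0486480 (chromosome 5H, 459965137 to 459967876), had 1.39, 1.32 and 1.62 TPM in *msnsd*, against 0.58, 1.33 and 1.09 TPM in E934. Its values overlapped between genotypes, and its log2 difference was 0.55 ± 0.35 (limma adjusted p = 0.600).

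The synthesis genes did not separate the genotypes. For NCED, HORVU.MOREX.r3.5HG0508150 (chromosome 5H, 520992121 to 520994646) was the more abundant gene, with 11.6, 10.54 and 13.89 TPM in *msnsd* and 7.11, 23.96 and 13.73 TPM in E934. The E934 values spanned the whole range of the *msnsd* values, and the log2 difference was -0.15 ± 0.40 (limma adjusted p = 0.9155). The second NCED gene, HORVU.MOREX.r3.5HG0426410 (chromosome 5H, 15783095 to 15785806), had 1.71, 2.48 and 2.25 TPM in *msnsd*, against 1.6, 3.79 and 2.36 TPM in E934. Its log2 difference was -0.19 ± 0.34 (limma adjusted p = 0.871). HORVU.MOREX.r3.3HG0222140 (chromosome 3H, 7879841 to 7881157, low confidence) is annotated as Abscisic acid-deficient 4, which in Arabidopsis takes part in making neoxanthin, a precursor of ABA. It was the most abundant gene of the group, at 39.48, 37.87 and 41.13 TPM in *msnsd* and 33.85, 82.8 and 62.69 TPM in E934. E934 replicate 1 lay below the *msnsd* libraries and the other E934 libraries above them, and the log2 difference was -0.50 ± 0.29 (limma adjusted p = 0.569). Without E934 replicate 1 it was -0.87, with a limma adjusted p of 0.0772. Without E934 replicate 2 it was -0.22, with a limma adjusted p of 0.837. In all 5 genes of ABA synthesis and breakdown, replicate 1 was the lowest and replicate 2 the highest E934 library. Over all genes tested, replicate 1 was the lowest E934 library in 35.7% and replicate 2 the highest in 45.2%.

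Of the 9 annotated ABA receptor genes, 6 were tested, and 8 of the 9 carry the polyketide cyclase domain of this receptor family in the deposited annotation. The most abundant were HORVU.MOREX.r3.1HG0032540 (chromosome 1H, 165020971 to 165023606) and HORVU.MOREX.r3.2HG0108630 (chromosome 2H, 28201816 to 28202934). The 1H gene averaged 44.5 ± 1.30 TPM in *msnsd* and 51.4 ± 10.1 TPM in E934 (SD, n = 3 each), a log2 difference of -0.19 ± 0.15 (limma adjusted p = 0.673). The 2H gene averaged 35.0 ± 3.02 TPM in *msnsd* and 34.3 ± 0.612 TPM in E934 (SD, n = 3 each), and its libraries overlapped (log2 difference 0.026, limma adjusted p = 0.936). A much weaker receptor gene, HORVU.MOREX.r3.1HG0071710 (chromosome 1H, 455948994 to 455949599), had 0.79, 0.34 and 1.01 TPM in *msnsd*, against 0.12, 0.17 and 0.07 TPM in E934. Its *msnsd* values all lay above its E934 values, but all were low. The log2 difference was 1.81 ± 0.50, with an unadjusted p of 0.00842 and an adjusted p of 0.2835 from limma. It was 0.59 with a pseudocount of 1, so its size rests on the pseudocount. Another receptor gene below the filter, HORVU.MOREX.r3.3HG0248870, was listed at 0 in each *msnsd* library and at 0.07, 0.13 and 0.08 TPM in E934. The summed level of the 9 receptor genes was between 91.3 and 103 TPM in *msnsd* and between 91.3 and 109 TPM in E934.

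Downstream of the receptors, 6 genes are annotated as ABA responsive element-binding factors, of which 5 were tested. At an unadjusted p under 0.05, 2 were lower (40%, against 5.09% of all genes tested) and 0 were higher (against 5.58%). The weakest of the 5, HORVU.MOREX.r3.6HG0618190, was listed at 0 in each *msnsd* library and at 0, 0.47 and 0.2 TPM in E934, so it was tested only through its E934 values. The lowest adjusted p of all 63 genes was in HORVU.MOREX.r3.7HG0683670 (chromosome 7H, 202042671 to 202042892), with 35.76, 33.59 and 35.44 TPM in *msnsd*, against 64.29, 81.5 and 55.17 TPM in E934. The *msnsd* libraries lay close together and below all E934 libraries. The log2 difference was -0.92 ± 0.14, with an unadjusted p of 0.000311 and an adjusted p of 0.0925 from limma, and the exact two-sided permutation test gave p = 0.1, the smallest that 3 libraries against 3 allow. HORVU.MOREX.r3.5HG0517440 (chromosome 5H, 543804574 to 543805253) had 67.73, 76.91 and 75.56 TPM in *msnsd* and 82.4, 97.45 and 101.24 TPM in E934. It also had no overlap between genotypes, with a smaller log2 difference of -0.35 ± 0.10 (limma adjusted p = 0.302). Both genes kept an unadjusted p under 0.05 in all 6 fits with a library left out. Among the genes higher in *msnsd*, so did HORVU.MOREX.r3.6HG0607330, HORVU.MOREX.r3.1HG0071710 and the dehydrin gene HORVU.MOREX.r3.6HG0622760. The names of the binding-factor class need care. None of the 6 models has a bZIP domain in the deposited annotation, where 67 other genes do, 5 of the 6 are low-confidence models, and the 7H model spans 222 bp and overlaps no RefSeq gene of the same assembly. A pair of high-confidence genes annotated as ABA-responsive binding factor, which the search for the 83 genes did not take in and which were picked out after their values were seen, averaged 6.54 ± 2.38 TPM (HORVU.MOREX.r3.7HG0642690) and 0.907 ± 0.722 TPM (HORVU.MOREX.r3.2HG0097300) in *msnsd*, against 9.60 ± 4.70 and 1.84 ± 1.44 TPM in E934 (SD, n = 3 each). In limma the adjusted p was 0.714 on 7H and 0.841 on 2H. As the MADS-box sum above was also lower in *msnsd* without overlap, its part in these differences was not tested.

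**Figure D2:**
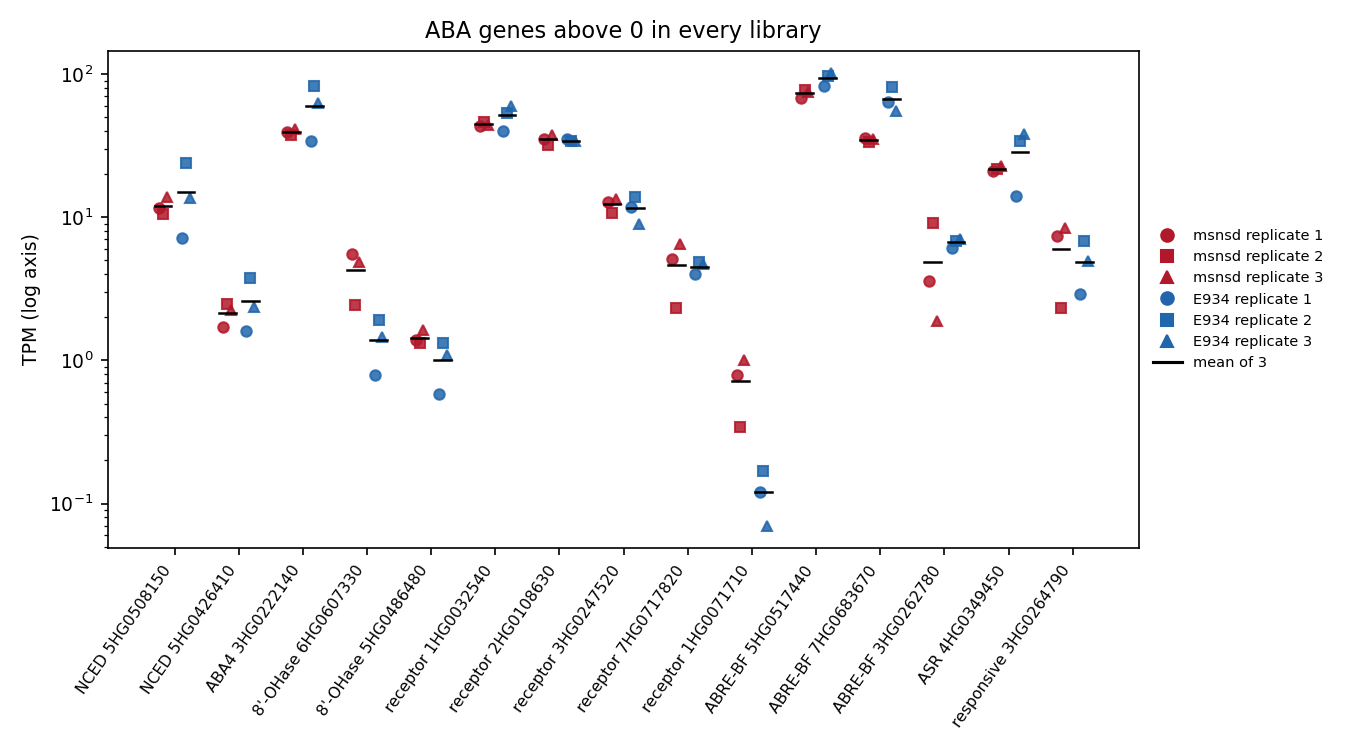
TPM on a log axis in each library for the 15 tested ABA genes above 0 in every library, with *msnsd* in red to the left of E934 in blue, marker shapes for replicates 1 to 3 and a black line at the mean of 3 libraries; names are shortened to the last part of the identifier. The genotypes separate in the 6H ABA 8'-hydroxylase gene and the weakest receptor gene, higher in *msnsd*, and in the binding-factor genes on 5H and 7H, lower in *msnsd*.

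Abscisic stress ripening (ASR) genes encode small hydrophilic proteins known in tomato and other plants to respond to ABA and drying. Only HORVU.MOREX.r3.4HG0349450 (chromosome 4H, 92656573 to 92657638) had a mean of at least 10 TPM among the 6 of them, with 20.95, 21.7 and 22.83 TPM in *msnsd*, against 14.13, 33.84 and 38.23 TPM in E934. The 3 *msnsd* values lay inside the E934 range, and the log2 difference was -0.27 ± 0.35 (limma adjusted p = 0.808). Without E934 replicate 1 it was -0.72, with a limma adjusted p of 0.0602. It was -0.09 without E934 replicate 2 (limma adjusted p = 0.965) and -0.004 without E934 replicate 3 (limma adjusted p = 0.998). The other 5 ASR genes lie within 85407 bp on chromosome 3H (607387806 to 607473212), and their summed level was 0.15, 3.13 and 2.39 TPM in *msnsd* and 0.08, 0.72 and 2.3 TPM in E934. Close copies of this kind can share reads, so the split between them is uncertain.

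All 11 dehydrin genes were tested, and 10 of them carry the dehydrin domain, the most abundant gene being the exception. At an unadjusted p under 0.05, 2 were higher in *msnsd* (18.2%, against 5.58% of all genes tested) and 0 were lower (against 5.09%), and the median log2 difference of the 11 was 0.49, against -0.02 over all genes tested. Without E934 replicate 1, 1 was higher (9.09%, against 7.72%) and 3 were lower (27.3%, against 7.83%), and the median was -0.06. The count of higher genes does not rest on that library alone. HORVU.MOREX.r3.6HG0622710, 1 of the 2, had an unadjusted p under 0.05 in only 2 of 6 fits with a library left out. The most abundant was HORVU.MOREX.r3.4HG0333030 (chromosome 4H, 4676411 to 4677377), with 274.84, 216.57 and 289.56 TPM in *msnsd* and 122.59, 310.85 and 324.23 TPM in E934. E934 replicate 1 was far below the other E934 libraries, and those lay above every *msnsd* library. The log2 difference was 0.16 ± 0.36 (limma adjusted p = 0.901), and without E934 replicate 1 it was -0.30. HORVU.MOREX.r3.6HG0602880 (chromosome 6H, 427730193 to 427731496) came next, with 119.64, 56.28 and 145.29 TPM in *msnsd* and 36.16, 110.05 and 88.42 TPM in E934. Its genotypes overlapped widely (log2 difference 0.49 ± 0.49, limma adjusted p = 0.741). The difference was 0.01 without E934 replicate 1 and 0.90 without *msnsd* replicate 2.

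A group of 4 dehydrin genes stands within 176336 bp on chromosome 6H (534228956 to 534405291), in a stretch singled out after its values were seen. Their log2 differences with all libraries were above 0 in 2 and below 0 in 2, the latter by less than their standard errors. HORVU.MOREX.r3.6HG0622760 (534378587 to 534379296) had 7.8, 4.78 and 4.22 TPM in *msnsd*, against 0.98, 1.74 and 3.35 TPM in E934. The genotypes did not overlap, and the log2 difference was 1.53 ± 0.45 (limma adjusted p = 0.302). HORVU.MOREX.r3.6HG0622710 (534228956 to 534231085), which the study had listed from the same libraries, had 3.14, 1.33 and 5.08 TPM in *msnsd*, against 0.65, 1.34 and 1.06 TPM in E934. Here *msnsd* replicate 2 lay level with the highest E934 library. The log2 difference of 1.42 ± 0.50 had a limma adjusted p of 0.392, and its unadjusted p stayed under 0.05 in only 2 of 6 fits with a library left out. The neighbours HORVU.MOREX.r3.6HG0622770 (534387122 to 534388067) and HORVU.MOREX.r3.6HG0622790 (534404316 to 534405291) ran the other way once E934 replicate 1 was set aside. HORVU.MOREX.r3.6HG0622770 had 6.88, 4.34 and 3.05 TPM in *msnsd*, against 0.92, 9.25 and 11.16 TPM in E934, a log2 difference of -0.05 ± 0.89 with all libraries (limma adjusted p = 0.990) and of -1.16 without E934 replicate 1. HORVU.MOREX.r3.6HG0622790 had 0.58, 0.39 and 1.08 TPM in *msnsd*, against 0.24, 1.6 and 1.74 TPM in E934, where the values were -0.48 ± 0.72 (limma adjusted p = 0.841) and -1.27. The summed level of the 4 genes was 18.4, 10.84 and 13.43 TPM in *msnsd* and 2.79, 13.93 and 17.31 TPM in E934.

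**Figure D3:**
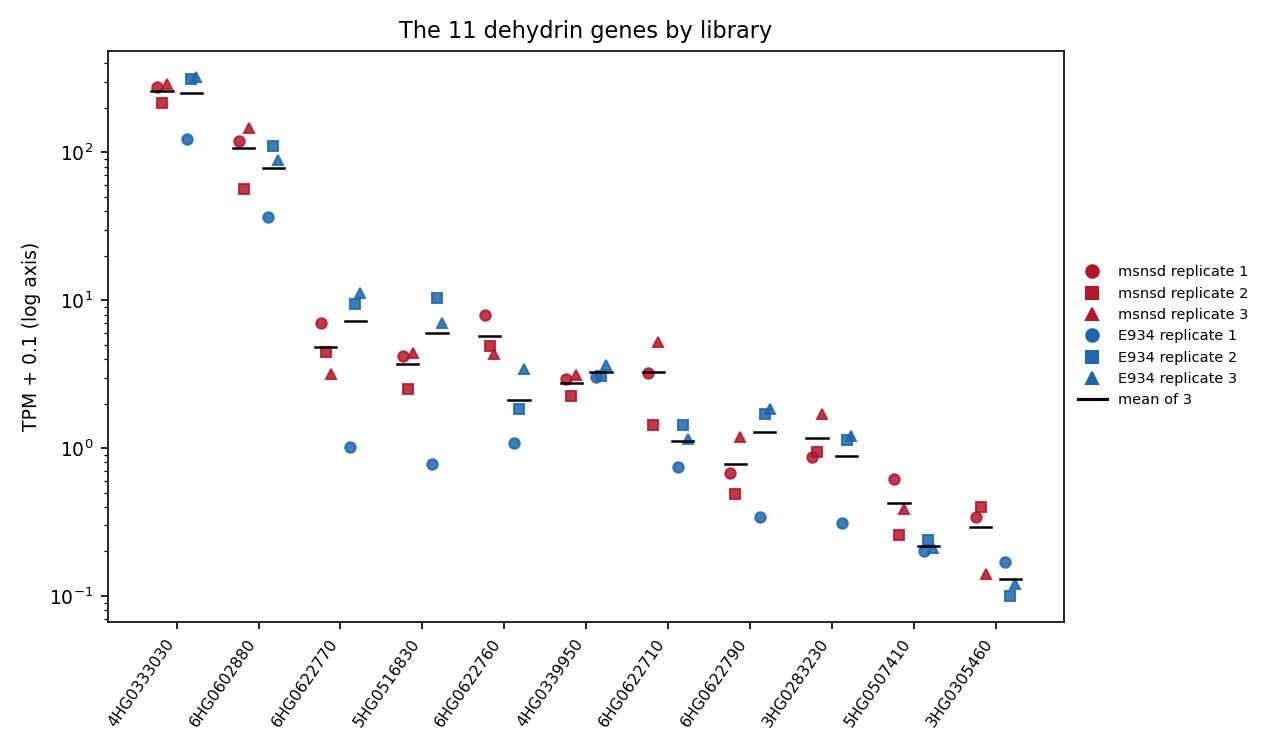
TPM + 0.1 on a log axis in each library for the 11 dehydrin genes, ordered by mean level, with *msnsd* in red to the left of E934 in blue, marker shapes for replicates 1 to 3 and a black line at the mean of 3 libraries. Replicate 1 (blue circles) was the lowest E934 library in 10 of the 11 genes, and replicate 2 (red squares) the lowest *msnsd* library in 7.

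The other 45 LEA genes had mean levels from 0.0150 to 167 TPM, and 31 of them were tested, of which 2 were higher in *msnsd* and 1 was lower, each with an unadjusted p under 0.05 (6.45% and 3.23%, close to the 5.58% and 5.09% of all genes tested). Their median log2 difference was 0.17. Of the 45, 6 carry a root cap domain and others have no domain in the deposited annotation, so their class rests on the description. Genes that carry an LEA domain fall into several families. The LEA_2 family held 7 of them, and its most abundant gene was HORVU.MOREX.r3.5HG0532580 (Lea14, chromosome 5H, 576518065 to 576520697), with 170.55, 138.41 and 169.08 TPM in *msnsd* and 133.67, 215.53 and 175.84 TPM in E934. Its *msnsd* values lay within the E934 range (log2 difference -0.11 ± 0.18, limma adjusted p = 0.847). The LEA_3 family held 2, and HORVU.MOREX.r3.3HG0253630 (chromosome 3H, 174868712 to 174869443) had 114.04, 90.2 and 120.58 TPM in *msnsd* and 46.02, 124.41 and 142.53 TPM in E934. Again E934 replicate 1 was the lowest library and the other E934 libraries were the highest. The log2 difference was 0.20 ± 0.40 with all libraries (limma adjusted p = 0.888) and -0.31 without E934 replicate 1. In the LEA_4 family, typical of maturing seeds, all 3 tested genes of 5 had a log2 difference below 0, from -0.58 to -0.27, and 0 had an unadjusted p under 0.05.

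Smaller differences were measured in a pair of more abundant LEA genes, neither of which has a domain in the deposited annotation. HORVU.MOREX.r3.1HG0029100 (chromosome 1H, 133599023 to 133599839) had 91.21, 97.52 and 94.95 TPM in *msnsd*, against 80.37, 68.55 and 84.36 TPM in E934. The genotypes did not overlap, and the log2 difference was 0.29 ± 0.09 (limma adjusted p = 0.352), with an unadjusted p under 0.05 in 4 of 6 fits with a library left out. HORVU.MOREX.r3.7HG0672250, annotated as an LEA protein of group 6 and named after its values were seen (chromosome 7H, 125465451 to 125465858, low confidence), had 36.23, 37.57 and 36.55 TPM in *msnsd* and 36.92, 55.68 and 61.86 TPM in E934. Here the 3 *msnsd* libraries were nearly equal, and E934 replicate 1 lay among them. The log2 difference was -0.45 ± 0.18 (limma adjusted p = 0.451), and without E934 replicate 1 it was -0.67 with a limma adjusted p of 0.0529, the lowest of the 66 genes tested in that fit. That was the only 1 of the 6 fits with a library left out in which its unadjusted p was under 0.05, and the highest was 0.140.

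A pair of neighbouring LEA genes on chromosome 1H had the largest fitted differences of the class, at low levels. HORVU.MOREX.r3.1HG0061770 (409243732 to 409244544) had 0.87, 0.81 and 0.75 TPM in *msnsd*, against 0.05, 0.39 and 0.3 TPM in E934. There was no overlap between genotypes, and the log2 difference was 1.56 ± 0.52 (limma adjusted p = 0.367), or 0.55 with a pseudocount of 1. HORVU.MOREX.r3.1HG0061780 (409291233 to 409291633) was listed at 4.93 TPM in *msnsd* replicate 1 and at 0 in the other 5 libraries, so it differs in a single library. HORVU.MOREX.r3.4HG0408940 (chromosome 4H, 584570603 to 584571523) had a wide spread in both genotypes, with 58.91, 21.67 and 69.94 TPM in *msnsd* and 5, 34.75 and 40.98 TPM in E934 (log2 difference 1.21 ± 0.83, limma adjusted p = 0.633). These last 2 genes were also named after their values were seen. None of the genes in this paragraph has a domain in the deposited annotation.

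The spread in these genes followed the library. Among the 63 tested genes, replicate 1 was the lowest E934 library in 41 (65.1%), against 35.7% of all genes tested, and replicate 2 was the lowest *msnsd* library in 36 (57.1%), against 33.0%. In the LEA and dehydrin genes the counts were 28 of 42 for E934 replicate 1 and 25 of 42 for *msnsd* replicate 2. Genes that respond together are not independent, so these shares describe the libraries and were not tested. Their summed level was 1071, 818 and 1139 TPM in *msnsd*, against 594, 1112 and 1081 TPM in E934. The sum for E934 replicate 1 was the lowest of the 6, that for *msnsd* replicate 2 the next, and the other 4 libraries of both genotypes lay close together. E934 replicate 1 also had the highest MADS-box sum, at 1389 TPM, whose part in the pattern was not tested.

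**Figure D4:**
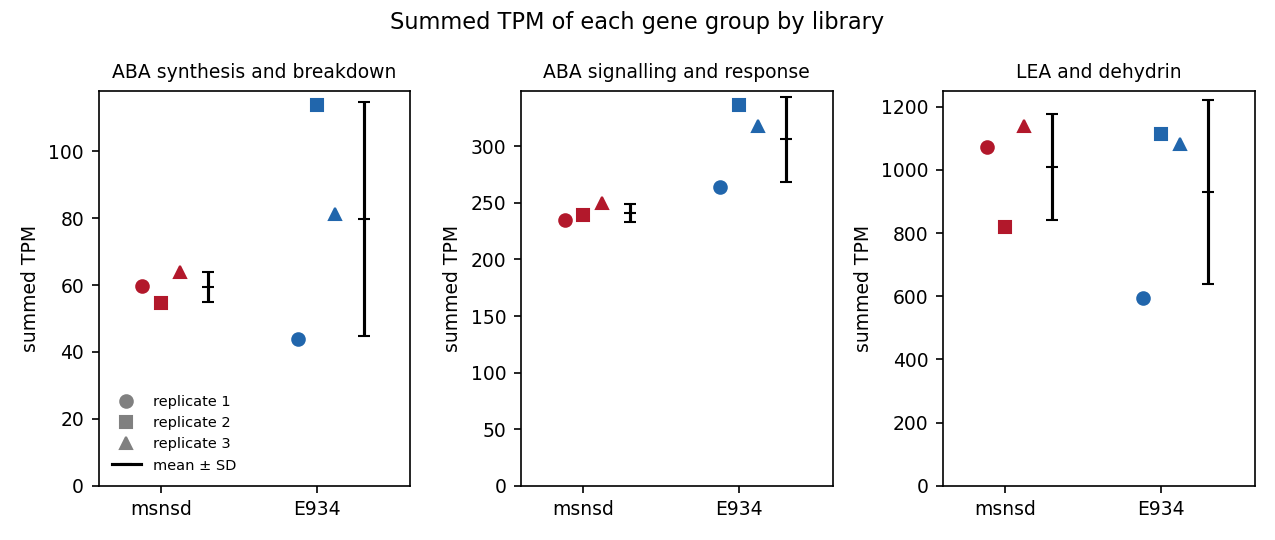
Summed TPM of the 5 genes of ABA synthesis and breakdown, the 22 of ABA signalling and response and the 56 LEA and dehydrin genes in each library, with *msnsd* to the left of E934, marker shapes for replicates 1 to 3 and the mean ± SD of 3 libraries in black. In the LEA and dehydrin genes the E934 sums run from 594 to 1112 TPM and enclose all *msnsd* sums but the highest, while the sums of ABA signalling and response do not overlap, a separation that the 6 binding-factor models carry.

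Leaving out E934 replicate 1 changed the picture of the lower genes. With all libraries, 3 of 63 genes had an unadjusted p under 0.05 and were lower in *msnsd*, and without it 12 of 66 did (18.2%), against 7.83% of all genes tested in that fit. The higher genes numbered 6 with all libraries and 7 without it (10.6%, against 7.72% of all genes tested). The 12 held 3 dehydrin genes, 3 other LEA genes, 3 binding-factor genes, an ABA receptor gene, the 4H ASR gene and the Abscisic acid-deficient 4 gene. Of these, 2 (HORVU.MOREX.r3.6HG0618190 and an LEA gene, HORVU.MOREX.r3.1HG0058690) reached the filter through E934 alone, so their direction was set by it. None of the 66 was past the thresholds in that fit (0 genes in limma). The median log2 difference of the LEA and dehydrin genes was 0.19 with all libraries and -0.03 without E934 replicate 1, so its direction rests on that library. E934 replicate 1 was the lowest E934 library in most of the tested genes, so leaving it out lowers their differences. Without *msnsd* replicate 2, mostly the lowest *msnsd* library, the median was 0.26. In that fit 7 of 63 genes were higher and 3 lower at an unadjusted p under 0.05, against 2959 of all 33045 genes in either direction. For ABA synthesis and breakdown the median was -0.15, and it was -0.48 without E934 replicate 1 and 0.27 without E934 replicate 2. The summed level of ABA signalling and response was 235, 239 and 250 TPM in *msnsd*, against 264, 336 and 318 TPM in E934, with a median log2 difference of -0.13 that lay between -0.18 and -0.0003 when single libraries were left out. Without the 6 binding-factor models, whose names are in doubt, the sums, taken after the values were seen, were 126.29, 118.43 and 137 TPM in *msnsd* and 108.47, 148.62 and 154 TPM in E934, and the genotypes overlapped.

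Other genes of the ABA pathway were counted by lists of their descriptions, and none of these was past the thresholds in limma. Their shares stand against 5.58% higher and 5.09% lower over all genes tested, or 7.72% and 7.83% without E934 replicate 1. Carotenoid and late ABA precursor genes (zeaxanthin epoxidase, phytoene synthase, aldehyde oxidase and molybdenum cofactor sulfurase among them) had 0 higher and 2 lower of 25 tested at an unadjusted p under 0.05 (8% lower). The lower ones were a phytoene synthase gene, HORVU.MOREX.r3.7HG0750360, with 15.03, 19.74 and 15.19 TPM in *msnsd* and 18.34, 22.36 and 22.85 TPM in E934, and an aldehyde oxidase gene, HORVU.MOREX.r3.7HG0747110, with 1.19, 1.55 and 1.42 TPM in *msnsd* and 1.86, 2.23 and 2.16 TPM in E934. Without E934 replicate 1 the precursor genes had 1 higher and 3 lower of 25 (4% and 12%). Genes described as protein phosphatases of type 2C, a large family of which only a subgroup is known to be inhibited by the receptors, had 6 higher and 3 lower of 64 (9.38% and 4.69%), and 4 higher and 9 lower of 64 without E934 replicate 1 (6.25% and 14.1%). The lowest adjusted p of the 64 was 0.173, in HORVU.MOREX.r3.4HG0384700, with 38.43, 43.51 and 48.22 TPM in *msnsd* and 29.01, 32.52 and 30.93 TPM in E934. The search for SNF1-related kinases matched 8 genes, all of them regulatory subunits and none a kinase. The kinases that the receptors free were therefore not examined, and the place of these subunits in the ABA pathway was not tested. Of the 8, 0 had an unadjusted p under 0.05 (smallest adjusted p = 0.525 from limma). Without E934 replicate 1, 0 were higher and 4 of the 8 were lower (50%), with a smallest adjusted p of 0.129 from limma. HVA22, GRAM-domain, GEM-like and binding-factor genes whose descriptions name ABA or these families had 2 higher and 2 lower of 29 (6.9% each). Without E934 replicate 1 they had 0 higher and 3 lower of 29 (10.3% lower), with a median log2 difference of -0.16. Genes annotated for seed maturation, oleosins or cold response had 3 higher and 0 lower of 22 (13.6% higher), with a median log2 difference of 0.22. Without E934 replicate 1 there were 3 higher and 2 lower (13.6% and 9.09%) and the median was 0.12. The 3 that were higher with all libraries were a vicilin-like gene (HORVU.MOREX.r3.4HG0399610), a cold acclimation gene (HORVU.MOREX.r3.3HG0277960) and a seed maturation gene (HORVU.MOREX.r3.5HG0470900), none with a mean above 1.72 TPM in either genotype. The vicilin-like gene, at 0.41, 0.23 and 0.4 TPM in *msnsd* and 0.05, 0.01 and 0 TPM in E934, reached the filter through *msnsd* alone.

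Marker genes for other tissues were counted in the same way. The summed level of photosystem and chlorophyll-binding genes, which mark green leaf and sheath, was between 1135 and 1508 TPM in *msnsd* and between 1107 and 1355 TPM in E934, with 7 higher and 4 lower of 90 tested at an unadjusted p under 0.05 (7.78% and 4.44%). MADS-box genes had 7 higher and 9 lower of 45 (15.6% and 20%), both above the 5.58% and 5.09% of all genes tested, and 4 higher and 10 lower without E934 replicate 1 (8.89% and 22.2%). In limma 0 of either list was past the thresholds. Pollen and anther genes had 2 higher and 1 lower of 28 (7.14% and 3.57%), and summed to 440.57, 434.56 and 448.92 TPM in *msnsd* and to 402.26, 459.83 and 445.63 TPM in E934. Within each genotype this sum ranks the libraries as the LEA and dehydrin sum does, over a much narrower range. The seed maturation and cold list also ranks them so, with 316.09, 266.95 and 344.27 TPM in *msnsd* and 224.98, 301.12 and 288.41 TPM in E934. This order is not confined to lists for a tissue. Type 2C phosphatases gave it too (1618, 1590 and 1643 TPM in *msnsd*, 1527, 1792 and 1727 TPM in E934). So did the list with HVA22 and GEM-like genes (533, 430 and 596 TPM in *msnsd*, 405, 602 and 580 TPM in E934). The photosystem, MADS-box, grain storage, precursor and regulatory-subunit lists rank the libraries otherwise. The grain storage list had 2 higher and 1 lower of 15 tested (13.3% and 6.67%), but 10 of its 25 genes are named for immunoglobulins. The part of these tissues in the LEA and dehydrin levels was not tested.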

How the data were processed

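The samples were 6 RNA-seq libraries of young panicles, 3 of *msnsd* and 3 of E934, grouped by their sample titles. The authors cleaned the reads with fastp, mapped them to the barley assembly Morex V3, quantified transcripts with Salmon 1.9.0 and deposited TPM per gene and library to 2 decimals. Each library sums to between 999916 and 999936 TPM, which keeps no depth. The deposited columns of the authors' own DESeq2 comparison (fold changes, standard errors, p-values and mean counts) were not used, and a count test was not run because TPM are not counts.

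A linear model per gene was fitted in limma 3.58.1 (R 4.3.3) to the genes averaging 0.1 TPM or more (lmFit, then eBayes with trend, on log2(TPM + 0.1), genotype as the only term), adjusted over 32968 genes. Single genes were also compared by exact permutation over 20 assignments. The median differences and sums of gene groups carry no test. In a check on data with known answers, limma called 177 of 200 genes given a log2 change of 3, out of 32032, and 2 unchanged genes. The changed genes were drawn from the more abundant ones, and the highest log2 difference fitted to any of the 63 tested genes was 2.10. The check therefore does not show how well smaller changes, or changes in low genes, are found. Python 3.11.15, numpy 2.4.6, pandas 2.3.3 and matplotlib 3.10.9 were used.

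The genes and lists were chosen with earlier results of these data known. Named genes were those with an unadjusted p under 0.05 and an absolute log2 difference of at least 1, those with at least 1.5 and no overlap, the 5 most abundant of each group, all tested genes of ABA synthesis and breakdown, and 2 that the study listed. Abscisic acid-deficient 4 was placed with synthesis after the descriptions were read. Of the 83 genes, 75 overlap a RefSeq gene model of the same assembly. No sequences are printed. Alternatives were pseudocounts of 1 and 0.01, a filter at 1 TPM or none, other scalings, limma with no trend, a replicate block, and each library left out.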

Additional observations from a re-analysis of the deposited data

How the results depend on the processing

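None of the genes was past the thresholds in the main test or in any of the 14 alternative limma fits, whose filters let through 37 to 83 of the 83 genes (0 genes, with 4 to 8 higher and 2 to 12 lower at an unadjusted p under 0.05). Leaving out a library gave 5 to 7 higher and 2 to 12 lower genes, the 12 without E934 replicate 1 (18.2%, against 7.83% of all genes tested in that fit). The count over all genes moved as well. In either direction, 3517 of 32968 had an unadjusted p under 0.05 with all libraries. This was 5120 of 32931 without E934 replicate 1 and 2302 of 33040 without *msnsd* replicate 3, the highest and lowest of these fits. Over all genes, 16 were past the thresholds, 25 with genes under 1 TPM removed, 30 without the trend, and from 0 to 22 when a library was left out (22 without E934 replicate 1, 5 without E934 replicate 2 and 0 without any other). In the fit with a replicate block 0 of all genes were past them and 3525 had an unadjusted p under 0.05, against 3517 without it. Deviations of same-numbered libraries correlated at 0.0186, -0.160 and 0.0730 for replicates 1, 2 and 3, and nothing in the labels pairs them.

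Of the 19 genes named by the rule, 13 kept their sign in every fit that tested them and 6 did not, each in a fit that left out 1 library. Over those fits the log2 difference of HORVU.MOREX.r3.4HG0333030 ran from -0.30 to 0.40 and that of HORVU.MOREX.r3.3HG0253630 from -0.31 to 0.51, both negative without E934 replicate 1. Without E934 replicate 2 the sign changed in HORVU.MOREX.r3.5HG0426410 (-0.48 to 0.12), HORVU.MOREX.r3.5HG0508150 (-0.60 to 0.27) and HORVU.MOREX.r3.5HG0532580 (-0.30 to 0.049), and without *msnsd* replicate 3 in HORVU.MOREX.r3.2HG0108630 (-0.033 to 0.092). The cause was not tested. For HORVU.MOREX.r3.7HG0683670 the range was -1.05 to -0.77, with a limma adjusted p from 0.0603 to 0.345 over all 14 alternatives.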

Other observations

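Genes outside the 83 share the LEA domains. In the deposited annotation 44 other genes carry the LEA_2 domain, most of them described as hydroxyproline-rich glycoproteins, and 38 were tested. At an unadjusted p under 0.05, 6 of the 38 were higher in *msnsd* and 0 were lower (against 5.58% and 5.09% of all genes tested), with a median log2 difference of 0.17 and none past the thresholds in limma (0 genes). The LEA_1 domain is found in 9 genes, all described as seed maturation proteins and so outside the 83, of which 8 were tested, 1 was higher and 0 were lower, with a median log2 difference of 0.50. These domain counts were made after the values were seen and were not repeated without E934 replicate 1, so their dependence on that library was not tested.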
